A study of Mus musculus with 4 samples.

Results

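The collagen genes are those that build the alpha chains of collagens I to XXVIII. They were taken as every row of the expression table whose symbol reads Col, a type number, the letter a and a chain number, which gave 36 of 18091 gene rows: 11 fibrillar collagens, 6 basement membrane collagens and 19 others. RNA from whole insulinomas was hybridised to bead arrays, and the deposited values hold 1 signal per gene. Tumors came from RIP1-Tag2 (RT2) mice, in which an insulin promoter drives the SV40 large T antigen in pancreatic beta cells. The tested agent, sEphB4-Alb, is the soluble ectodomain of the receptor EphB4 fused to albumin, which binds ephrin-B2 and so interrupts EphB4-ephrin-B2 signalling. Tumors were collected at 13.5 weeks of age for 4 arrays. For 2 arrays the mice were given sEphB4-Alb at 10 mg/kg into the peritoneum 3 times a week from 10 weeks of age. For the other 2 arrays the mice were given phosphate-buffered saline (PBS) instead. Both groups carried the T antigen transgene, both were wild type at Dll4 according to the methods, and the strain background was given as CD1 and C57/BL6. The labels and methods do not state the source animal of each sample, nor whether tumors or animals were pooled. A tumor named below, such as PBS tumor 1, is therefore the sample on 1 array. Every p-value below measures only the spread between these 4 samples.

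Collagens are the main structural proteins of the extracellular matrix, and each molecule is a helix wound from alpha chains that must be hydroxylated and chaperoned in the secretory pathway before export. Fibrillar collagens (types I, II, III, V, XI, XXIV and XXVII) assemble into fibrils. Types I, III and V among them are made mostly by fibroblasts and, in vessels, by mural cells. Type IV forms the network of basement membranes under endothelium and epithelium, and the remaining types sit on fibrils, anchor membranes, form beaded filaments or, as with XV and XVIII, carry sugar chains in the basement membrane zone. The C-terminal end of the collagen XVIII chain can be cut off as endostatin, an inhibitor of vessel growth. In a whole tumor, fewer cells of a type and less RNA per cell cannot be told apart.

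The arrays were not equally bright. The median deposited signal was 159.9 and 168.7 in the sEphB4-Alb tumors, against 135.5 and 141.6 in the PBS tumors, and 11106 and 11378 genes lay above background in sEphB4-Alb tumors, against 9349 and 10587 in PBS tumors. Values below are log2 signals after background correction and quantile normalization, which gives every array the same distribution, and fold changes are sEphB4-Alb over PBS. PBS tumor 1 stood apart, with correlations of 0.946 to 0.954 to the other tumors, which correlated with each other at 0.976 to 0.979. Ins1, Ins2, Chga and Pcsk2 were above background on every array, while the beta cell genes Slc2a2 and Pcsk1 were above it on none. Xist, which is transcribed from the inactive X chromosome, exceeded background in 2 of 2 sEphB4-Alb arrays and in 0 of 2 PBS arrays, at 8.27 and 9.24 against 6.46 and 6.24. Ddx3y, a Y-linked gene, was above background on all 4 arrays, at 6.47 and 7.20 in sEphB4-Alb tumors, against 8.92 and 9.49 in PBS tumors. The study describes the mice of the treatment trial as male, and the source of these differences was not tested; they run with the groups and cannot be told apart from the treatment. A gene was tested where both tumors of at least 1 group were above background, which kept 10675 genes.

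Of the 36 collagens, 19 passed that filter: 7 fibrillar, 2 basement membrane and 10 other collagens. Of these, 15 were above background on all 4 arrays. The other 4 (Col24a1, Col2a1, Col5a3 and Col14a1) passed through the sEphB4-Alb tumors only, and none passed through the PBS tumors only. Among the 17 that were not tested, 12 were above background on no array and 5 (Col1a2, Col5a2, Col9a1, Col17a1 and Col25a1) on 1 array, and their deposited signals ran from 99.0 to 169.8, close to background. The deposited values had no row for Col6a3, Col6a4, Col6a5, Col6a6, Col8a1, Col20a1, Col22a1 or Col26a1.

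No collagen passed adjustment over all genes tested between sEphB4-Alb and PBS tumors: adjusted p ran from 0.714 to 0.98 (limma, Benjamini-Hochberg), and the background was equally empty, with 0 of 10675 genes past 0.05, or 0%. Before adjustment, Col1a1 and Col4a1 were higher in sEphB4-Alb tumors at p under 0.05, or 2 of 19 (10.5%) where 3.78% of all genes tested were, and no collagen was lower, where 2.76% of genes were. Only Col1a1 also passed a 2-fold difference, which 0.984% of genes did. For a single gene, an exact permutation test of 2 tumors against 2 cannot go below p = 0.333.

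Counted over every row, 21 of 36 collagens (58.3%) had a positive fold change, 15 a negative one, and the median was 0.04 on the log2 scale. In 9 of them (25.0%) both values from sEphB4-Alb exceeded both from PBS, and in 3 (Col13a1, Col19a1 and Col8a2, none above background on any array) both lay below. Over all 18091 genes the shares were 46.0% positive, 16.7% above and 20.7% below, and over the genes tested 47.8% positive, 52.2% negative, 18.5% above and 20.6% below, with a median fold change of -0.01. Among the 15 collagens above background on all 4 arrays 12 (80.0%) were positive, 7 (46.7%) had both sEphB4-Alb tumors on top, none had both below, and the median was 0.35. Of the 8741 genes above background on all 4 arrays, 42.0% were positive, 14.8% above and 23.3% below, with a median of -0.05. Those 7 were Col1a1, Col4a1, Col4a2, Col6a1, Col6a2, Col15a1 and Col18a1; Col5a2 and Col9a1, not tested, make up the 9. The 17 untested rows had a median of -0.00 with 8 positive.

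**Figure D1:**
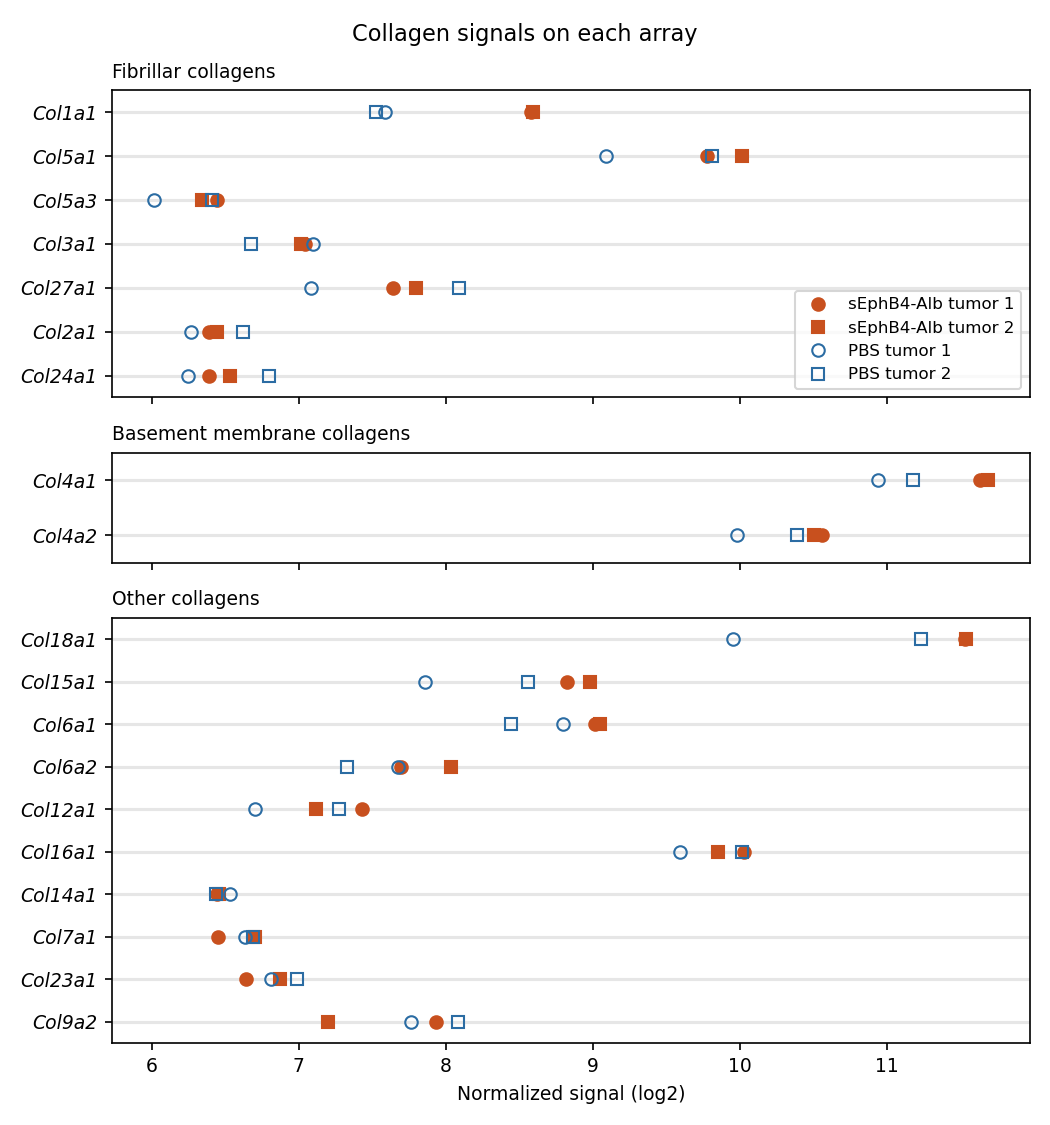
Log2 signal after background correction and quantile normalization (x axis) of the collagens in each tumor, grouped by class and sorted by fold change within it, with sEphB4-Alb tumors and PBS tumors as separate points. The sEphB4-Alb points lie to the right of both PBS points for Col1a1, Col4a1, Col4a2, Col6a1, Col6a2, Col15a1 and Col18a1; signals of different genes come from different probes and are not comparable.

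The promoter windows of Col4a1, Col4a2 and Col18a1 are shown because Col4a1 and Col4a2 are the tested basement membrane chains and their windows overlap, and because Col18a1, counted here with the other collagens, had the largest fold change after Col1a1. Each window is RefSeq sequence of GRCm38.p6 and runs from 250 bases before a gene's start to 50 bases after it, 300 bases in all. Col4a1 (chr8:11312777-11313076, minus strand) and Col4a2 (chr8:11312555-11312854, plus strand) are transcribed away from each other, and their windows share 78 bases, given in capitals below; the capitals of either are the reverse complement of the capitals of the other.
Col4a1: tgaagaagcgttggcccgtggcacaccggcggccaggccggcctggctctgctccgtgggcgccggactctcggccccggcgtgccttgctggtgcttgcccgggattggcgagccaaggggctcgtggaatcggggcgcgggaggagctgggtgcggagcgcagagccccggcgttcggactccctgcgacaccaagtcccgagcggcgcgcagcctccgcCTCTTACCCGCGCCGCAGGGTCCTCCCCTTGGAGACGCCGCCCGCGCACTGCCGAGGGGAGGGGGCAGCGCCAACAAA
Col4a2: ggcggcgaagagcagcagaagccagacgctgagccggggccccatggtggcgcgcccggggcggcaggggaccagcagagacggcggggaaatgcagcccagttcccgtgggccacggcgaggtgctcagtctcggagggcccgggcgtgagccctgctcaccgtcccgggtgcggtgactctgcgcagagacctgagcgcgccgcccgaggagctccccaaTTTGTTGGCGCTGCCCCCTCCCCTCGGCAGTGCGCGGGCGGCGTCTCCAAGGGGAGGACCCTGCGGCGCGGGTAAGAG
Col18a1 had windows at 2 starts. The upstream one (chr10:77166481-77166780, minus strand) is printed with 3 GC boxes (GGGCGG, either strand) and a CCAAT box in capitals, all on the strand opposite to the one printed; the GC boxes lie 61, 43 and 33 bases before the start.
Col18a1 start 1: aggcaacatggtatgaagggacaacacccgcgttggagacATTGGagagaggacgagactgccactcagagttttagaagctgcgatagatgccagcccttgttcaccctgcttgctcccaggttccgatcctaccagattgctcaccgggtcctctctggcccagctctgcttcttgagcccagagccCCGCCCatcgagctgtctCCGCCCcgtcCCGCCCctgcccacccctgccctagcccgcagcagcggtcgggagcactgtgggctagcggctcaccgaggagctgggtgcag
The downstream one (chr10:77113656-77113955, minus strand) held none of the motifs searched.
Col18a1 start 2: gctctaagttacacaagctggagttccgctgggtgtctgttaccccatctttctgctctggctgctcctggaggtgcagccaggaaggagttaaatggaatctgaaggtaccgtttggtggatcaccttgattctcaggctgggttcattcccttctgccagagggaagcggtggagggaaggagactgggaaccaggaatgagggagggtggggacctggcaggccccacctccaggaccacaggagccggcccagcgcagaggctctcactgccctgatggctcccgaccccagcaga
The deposited values give 1 signal for the gene and none for each start.

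Of the 36 collagens, 29 had at least 1 promoter window, 32 windows in all, with a median GC content of 59.8% against 52.7% over all 32851 windows of the table. Searched on both strands, TATAAA was in 5 collagen windows (15.6%, against 13.6% of all windows), CCAAT in 12 (37.5%, against 37.4%) and GGGCGG in 19 (59.4%, against 35.7%). The Col4a1 and Col4a2 windows were 74.0% and 73.7% GC, and those of Col18a1 were 63.3% and 59.7% GC. A match is a string of letters and not a mapped binding site.

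Col4a1, which encodes the alpha-1 chain of the main basement membrane network, had deposited signals of 3513 and 4848 in the sEphB4-Alb tumors, against 1147 and 2186 in the PBS tumors. After normalization its log2 signals were 11.63 and 11.69 in sEphB4-Alb tumors and 10.94 and 11.17 in PBS tumors, a difference of 0.60 (SE 0.17, 95% interval 0.16 to 1.04, adjusted p = 0.74 by limma). Both sEphB4-Alb tumors were higher than both PBS tumors, and the groups did not overlap, but the unadjusted p, 0.0173 with all tumors, was 0.0907 without sEphB4-Alb tumor 1 and 0.109 without sEphB4-Alb tumor 2, at differences of 0.63 and 0.57. Wherever 1 tumor is left out, its group has a lone tumor that is assumed to vary like the other group. Col4a2, its partner chain, read 10.56 and 10.51 in sEphB4-Alb tumors, against 9.98 and 10.39 in PBS tumors, a difference of 0.35 (SE 0.20, interval -0.18 to 0.87, adjusted p = 0.759 by limma). These groups did not overlap either, but PBS tumor 2 lay close under the sEphB4-Alb tumors, and the difference was 0.14 without PBS tumor 1 and 0.55 without PBS tumor 2. The other 4 type IV chains, Col4a3 to Col4a6, were above background on no array, with fold changes of -0.10 to 0.16.

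Col18a1 had the widest spread within the PBS group of the collagens higher in both sEphB4-Alb tumors. Its deposited signals were 3264 and 4371 in sEphB4-Alb tumors, against 610.5 and 2276 in PBS tumors, and the normalized values were 11.53 and 11.54 against 9.95 and 11.23. PBS tumor 1 was the low one. The difference was 0.95 (SE 0.44, interval -0.20 to 2.09, adjusted p = 0.747 by limma), 0.31 without PBS tumor 1 and 1.59 without PBS tumor 2. Col15a1, the other chain of this pair of sugar-bearing basement membrane zone collagens, read 8.83 and 8.98 in sEphB4-Alb tumors and 7.86 and 8.56 in PBS tumors, a difference of 0.70 (SE 0.28, interval -0.03 to 1.42, adjusted p = 0.74 by limma). PBS tumor 1 was again lowest, and the difference was 0.35 without it and 1.05 without PBS tumor 2.

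Col1a1, the alpha-1 chain of the most abundant fibrillar collagen, had the largest fold change of the tested collagens. Its deposited signals were 483 and 589 in sEphB4-Alb tumors, against 179 and 219 in PBS tumors, and the normalized values were 8.58 and 8.59 against 7.59 and 7.52. The difference was 1.03 (SE 0.15, interval 0.64 to 1.43, adjusted p = 0.714 by limma), a fold of 2.04, and it ranked at 172 among the 10675 genes by fold change. The unadjusted p was 0.00123, and leaving out any 1 tumor gave differences of 0.99 to 1.10. Col1a2, which pairs with Col1a1 in type I collagen, was above background on 1 array only and its deposited signals were 146 and 134 in sEphB4-Alb tumors, against 133 and 124 in PBS tumors, too close to background to say whether the chains moved together.

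The other tested fibrillar collagens overlapped between groups. Col3a1, the collagen III chain of vessel walls and loose stroma, read 7.05 and 7.01 in sEphB4-Alb tumors and 7.10 and 6.68 in PBS tumors, a difference of 0.14 (SE 0.20, interval -0.39 to 0.67, adjusted p = 0.876 by limma). Col5a1, whose chain helps set fibril diameter, read 9.78 and 10.01 in sEphB4-Alb tumors and 9.09 and 9.81 in PBS tumors. The sEphB4-Alb range overlapped that of PBS, and the difference of 0.44 became 0.08 without PBS tumor 1 and 0.80 without PBS tumor 2. Col27a1 read 7.64 and 7.80 in sEphB4-Alb tumors, inside the PBS values of 7.08 and 8.09. Col5a3 differed by 0.18, a sign that turned relative to the median gene under median scaling (-0.24), and Col24a1 and Col2a1 by -0.06 and -0.03. Col5a2, not tested, had deposited signals of 140 and 148 in sEphB4-Alb tumors, against 116 and 111 in PBS tumors, with only 1 of 4 arrays above background; its groups did not overlap.

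Collagen VI, which forms beaded filaments beside basement membranes, was covered by its alpha-1 and alpha-2 chains, which lie next to each other in the genome. Col6a1 read 9.01 and 9.05 in sEphB4-Alb tumors, against 8.79 and 8.44 in PBS tumors, a difference of 0.41 (SE 0.19, interval -0.08 to 0.91, adjusted p = 0.747 by limma). Col6a2 read 7.70 and 8.04 in sEphB4-Alb tumors, against 7.67 and 7.33 in PBS tumors, a difference of 0.37 (SE 0.22, interval -0.20 to 0.93, adjusted p = 0.759 by limma). Neither pair of groups overlapped, and here PBS tumor 2, not tumor 1, was lowest: the differences were 0.60 and 0.56 without PBS tumor 1 and 0.24 and 0.19 without PBS tumor 2. The lower sEphB4-Alb value of Col6a2 lay just above PBS tumor 1, and without sEphB4-Alb tumor 2 its difference was 0.18.

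The remaining tested collagens overlapped between groups. Col12a1 and Col16a1, which sit on fibril surfaces or beside them, differed by 0.29 and 0.14: Col12a1 read 7.43 and 7.12 in sEphB4-Alb tumors and 6.70 and 7.27 in PBS tumors, and Col16a1 read 10.03 and 9.85 in sEphB4-Alb tumors and 9.59 and 10.01 in PBS tumors. In both, PBS tumor 1 alone was low. Col14a1, also fibril-associated, differed by -0.03, Col7a1, the anchoring fibril chain, by -0.08, and the transmembrane collagen Col23a1 by -0.14. Col9a2, a cartilage collagen chain, had the lowest fold change of the tested collagens at -0.36 (SE 0.30, adjusted p = 0.804 by limma), with 7.93 and 7.20 in sEphB4-Alb tumors and 7.77 and 8.08 in PBS tumors. Its sEphB4-Alb tumors lay on either side of PBS tumor 1. The untested rows, all near background, ran from -0.28 (Col19a1) to 0.38 (Col5a2).

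**Figure D2:**
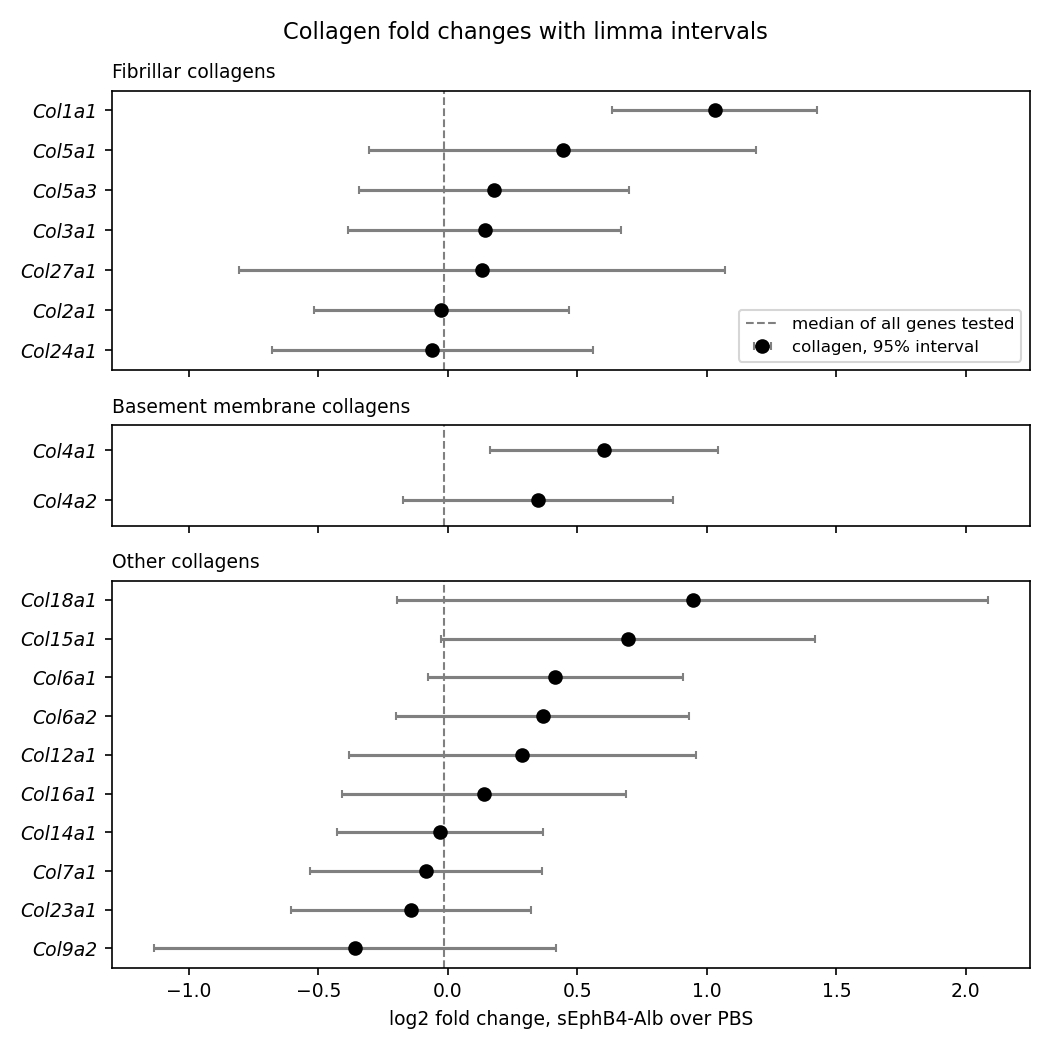
Log2 fold change of each tested collagen, sEphB4-Alb over PBS (x axis), with the 95% interval from limma, by class. The intervals of Col1a1 (0.64 to 1.43) and Col4a1 (0.16 to 1.04) exclude 0 before adjustment, and those of the other collagens include it.

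By class, the median fold change over the tested members was 0.14 for the 7 fibrillar collagens (5 positive), 0.47 for the 2 basement membrane chains (both positive) and 0.21 for the 10 other collagens (6 positive). Col24a1, Col2a1 and Col5a3 among the fibrillar collagens, and Col14a1 among the others, passed the filter only through the sEphB4-Alb tumors. Over members above background on all 4 arrays, the medians were 0.29 for 4 fibrillar collagens, 0.47 for the 2 basement membrane chains and 0.29 for 9 others. The classes were too small to be ranked, and no test of a difference between them was made. The groups did not overlap, with sEphB4-Alb higher, in 1 of 7 fibrillar collagens, 2 of 2 basement membrane chains and 4 of 10 others. This held for 18.5% of all genes tested. Over the tested collagens, the median deviation from each gene's own mean was 0.14 and 0.08 in sEphB4-Alb tumors, against -0.28 and 0.11 in PBS tumors. Over these collagens the low value was that of PBS tumor 1. The classes were unlike in this: the fibrillar collagens stood at 0.09 and 0.05 in sEphB4-Alb tumors and -0.29 and 0.14 in PBS tumors, the basement membrane chains at 0.24 and 0.24 in sEphB4-Alb tumors and -0.40 and -0.08 in PBS tumors, and the other collagens at 0.17 and 0.06 in sEphB4-Alb tumors and -0.02 and 0.11 in PBS tumors.

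PBS tumor 1 was the lowest of the 4 arrays in 17 of all 36 collagens (47.2%), against 30.6% of all genes, and in 8 of the 15 above background on all 4 arrays (53.3%), against 28.8% of genes on that basis. Among the 19 tested collagens it was lowest in 11, of which 3 passed the filter only through the sEphB4-Alb tumors. Over all genes tested it was lowest in 34.4% and highest in 35.5%. Without it the median over the tested collagens was 0.02, with 11 of 19 positive, and without PBS tumor 2 it was 0.35, with 14 of 19 positive. Without PBS tumor 1 the differences of Col1a1 and Col4a1 were 1.10 and 0.48. With each tumor left out in turn, 9 of the 19 changed sign at least once, and the 10 that did not were Col1a1, Col4a1, Col4a2, Col5a1, Col6a1, Col6a2, Col12a1, Col15a1, Col18a1 and Col23a1.

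**Figure D3:**
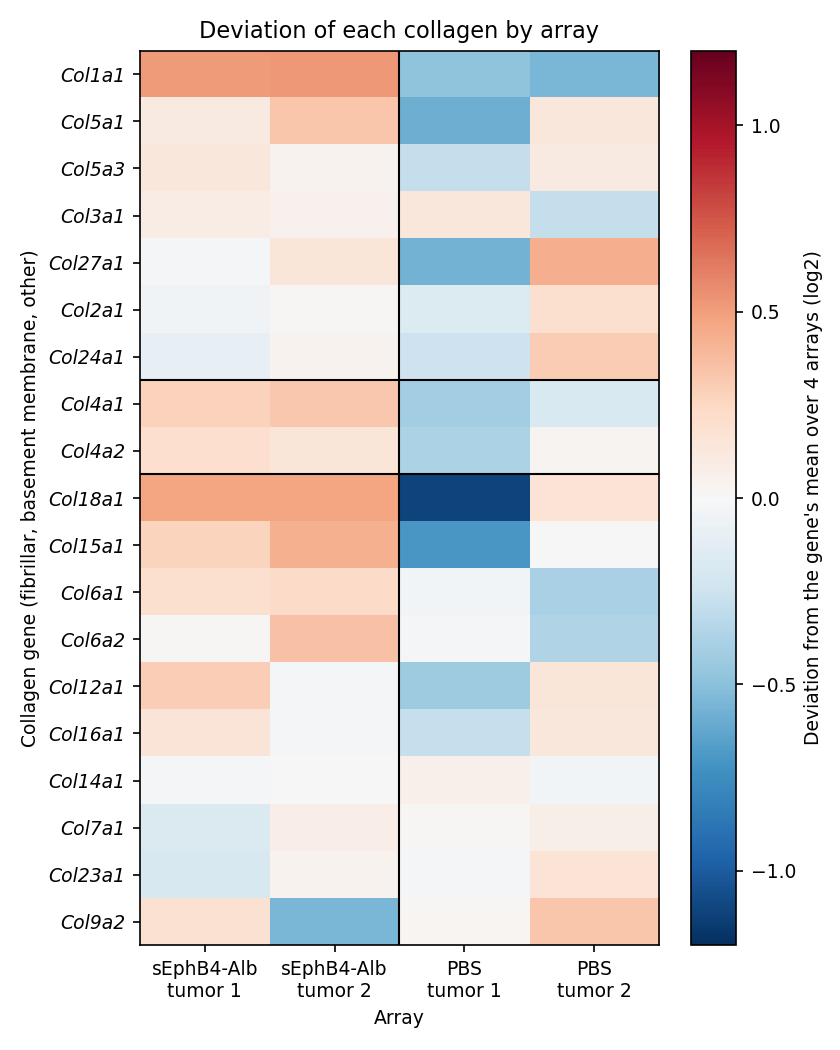
Deviation of each tested collagen from its own mean over the 4 arrays (log2 scale) in each tumor, with lines between the classes. PBS tumor 1 had a median of -0.28 over all tested collagens, against 0.14 and 0.08 in the sEphB4-Alb tumors and 0.11 in PBS tumor 2. It was lowest in 11 of the 19, and its median over the class of other collagens was -0.02.

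Genes that fold, cut, cross-link, degrade or bind collagen did not share a direction. Of 17 tested folding and modification genes, 8 were positive and 9 negative, with a median of -0.00. Plod2, the lysyl hydroxylase that acts on the ends of collagen chains, read 9.73 and 9.89 in sEphB4-Alb tumors, against 8.22 and 9.11 in PBS tumors (1.14, SE 0.33, adjusted p = 0.74 by limma). Its relative Plod3 went the other way, at 11.18 and 11.45 in sEphB4-Alb tumors, against 11.77 and 11.72 in PBS tumors. Serpinh1, the collagen chaperone HSP47, read 7.45 and 7.61 in sEphB4-Alb tumors, against 6.97 and 7.09 in PBS tumors. Fkbp10, a collagen prolyl isomerase, differed by 0.30. None of Plod2, Plod3 and Serpinh1 overlapped between groups, and none passed adjustment. Of the 17, 3 had non-overlapping groups with sEphB4-Alb higher and 4 with it lower. Over all genes tested 18.5% and 20.6% did. Without PBS tumor 1 the difference of Plod2 was 0.70 and that of Fkbp10 -0.00.

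Of 7 tested cleavage and cross-linking genes, 5 were positive, with a median of 0.12. Pcolce, an enhancer of procollagen C-proteinase, read 7.51 and 7.74 in sEphB4-Alb tumors, against 7.22 and 7.05 in PBS tumors, whereas Pcolce2 differed by -0.42. Sparc, a collagen-binding matrix protein, and Adamts2, a procollagen N-proteinase, differed by 0.38 and 0.27. Of 5 tested breakdown genes, 4 were positive, with a median of 0.13, and Mmp14, a membrane-bound collagenase, read 9.16 and 8.80 in sEphB4-Alb tumors, against 7.71 and 8.71 in PBS tumors, PBS tumor 1 again being lowest. Ctsk, Mmp13 and Mmp9 differed by 0.41, 0.13 and -0.04. The 4 tested receptors split evenly: Itgb1 and Itga11 differed by 0.14 and 0.11 (Itga11 by -0.14 relative to the median gene under median scaling), Ddr1 and Itga1 by -0.28 and -0.32. Without PBS tumor 1, Mmp14 differed by 0.27, Ctsk by -0.07, Pcolce2 by -0.03 and Itga1 by -0.05. Without PBS tumor 2, Sparc differed by 0.12 and Itgb1 by -0.01.

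Markers of the cells that make collagen gave the following values beside these results. Of 15 fibroblast markers, 13 were tested and 8 were positive, with summed normalized signals of 7465 and 5692 in sEphB4-Alb tumors, against 6112 and 5064 in PBS tumors. Dcn and Lum, abundant fibroblast genes, differed by -0.03 and -0.21, Thy1 by 0.92, and Fap and Postn were not tested. Mural cell markers, 10 tested of 12, were positive in 8, with sums of 3452 and 2905 in sEphB4-Alb tumors, against 2321 and 2103 in PBS tumors. These sums did not overlap, but the 2 negative markers, Des and Cspg4, differed by -0.31 and -0.05. Rgs5, Acta2 and Anpep, all in the mural cell list, are among the genes the study reported as raised by sEphB4-Alb. That report rests on these same arrays, so neither the mural cell sums nor the mural cell non-overlap count below is independent of it. Relative to the median gene, the mural cell median was 0.37 under quantile normalization and 0.09 under median scaling. Endothelial markers, 10 tested of 12, were positive in 7, with sums of 3416 and 3560 in sEphB4-Alb tumors, against 2890 and 3599 in PBS tumors; Pecam1 differed by -0.06, and Kdr and Cdh5 were not tested. Macrophage markers, 11 tested of 12, were positive in 9. Their sums were 10428 and 8677 in sEphB4-Alb tumors, against 12334 and 5557 in PBS tumors, where Lyz2 alone read 12.92 and 10.01. With sEphB4-Alb higher, the groups did not overlap in 7 macrophage, 6 mural cell, 2 endothelial and 2 fibroblast markers. With sEphB4-Alb lower, they did not overlap in 1 mural cell and 1 endothelial marker. Over all genes tested the shares were 18.5% higher and 20.6% lower. With all tumors the fibroblast median was 0.13, and with 1 tumor left out it ran from -0.13 (without sEphB4-Alb tumor 1) to 0.33. The endothelial median was 0.31 and ran from -0.05 (without PBS tumor 1) to 0.54. The mural cell and macrophage medians stayed positive, at 0.27 to 0.45 and 0.17 to 0.54. The part of any of these cells in the collagen values was not tested.

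Exocrine pancreas markers differed widely between tumors. All 10 tested acinar markers were positive, with sums of 10379 and 76107 in sEphB4-Alb tumors, against 2404 and 17085 in PBS tumors, and 9 of 10 duct markers were positive, with sums of 11279 and 10615 in sEphB4-Alb tumors, against 4460 and 8433 in PBS tumors. PBS tumor 1 had the lowest sum in both lists, and also in the endothelial and beta cell lists. Of the 7 tested collagens with both sEphB4-Alb tumors higher, Col4a1, Col4a2, Col15a1 and Col18a1 were lowest in PBS tumor 1. The others, Col1a1, Col6a1 and Col6a2, were lowest in PBS tumor 2. Beta cell markers, 11 tested of 14, were positive in 8 and summed to 61152 and 43818 in sEphB4-Alb tumors, against 35501 and 55269 in PBS tumors. The groups did not overlap, with sEphB4-Alb higher, in 8 of 10 duct, 5 of 11 beta cell and 2 of 10 acinar markers. With it lower, they did not overlap in 1 duct marker. These shares over all genes tested were 18.5% and 20.6%. Ins1, a beta cell marker, is among the genes the study reported as raised on these arrays. Of the 7 chondrocyte markers, Acan, Matn1 and Matn3 were above background on no array, while Chad read 9.32 and 8.15 in sEphB4-Alb tumors, against 6.26 and 6.70 in PBS tumors (adjusted p = 0.714 by limma), and Comp read 6.34 and 6.30 in sEphB4-Alb tumors, against 6.71 and 6.63 in PBS tumors. Whether these tissues moved the collagen values was not tested.

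The collagen values depended on how the arrays were scaled. Under quantile normalization the median tested gene differed by -0.01 between sEphB4-Alb and PBS tumors. Scaling each array to its median moved it to 0.25, and no normalization to 0.58. Relative to that median gene the tested collagens stood at 0.19 under quantile normalization and 0.16 under both other scalings, and the basement membrane chains at 0.49 and 0.70. Median scaling and no normalization give the same values on this scale by construction, because they differ only by a constant on each array. Of all genes past an unadjusted p of 0.05, 57.8% were higher in sEphB4-Alb tumors under quantile normalization, 97.2% under median scaling and 99.8% with no normalization.

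**Figure D4:**
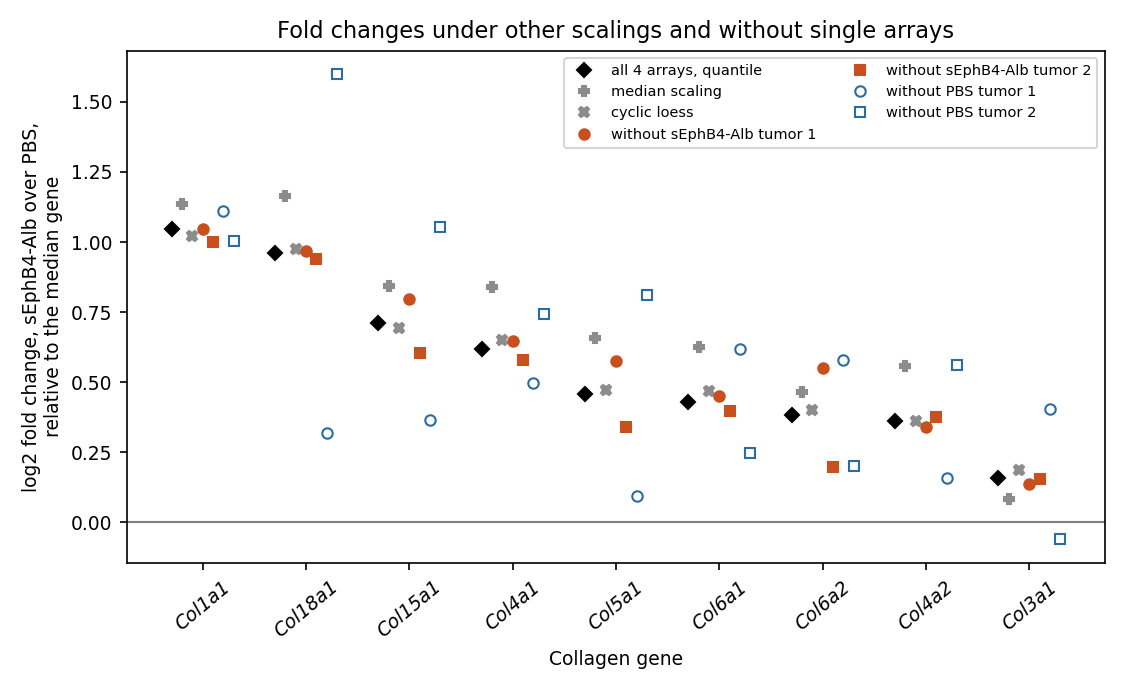
Log2 fold change of the 9 named collagens relative to the median gene, sEphB4-Alb over PBS. Settings are quantile normalization, median scaling, cyclic loess and each tumor left out in turn. On this scale Col1a1 lies at 1.00 to 1.11 when any 1 tumor is left out. Col18a1 ranges between 0.32 without PBS tumor 1 and 1.60 without PBS tumor 2.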

How the data were processed

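Whole-tumor RNA of RT2 insulinomas was measured on 4 Illumina MouseRef-8 v2.0 bead arrays. Whether an array held RNA of 1 tumor or of several is not stated. The deposited values used here were signal intensity on a linear scale, 1 per gene and array; the software, background correction and normalization that made them were not given in the sources used here. Another, non-normalized table was not used, because its 8 value columns carry names that match no single sample.

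Deposited intensity was background-corrected with normexp (offset 50), quantile-normalized between arrays and log2-transformed, and genes were fitted with limma 3.58.1 (R 4.3.3), sEphB4-Alb minus PBS, with Benjamini-Hochberg adjustment over all 10675 genes tested. A gene was above background on an array where its deposited signal exceeded a limit set from the mode and lower spread of that array's signals, at 131.2 to 143.3; this definition was chosen after the files were seen. The number of arrays limits the precision. Replicate numbers came from the sample titles. Steps were tested on simulated data before use.

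The collagens and the companion and marker lists were chosen with earlier results of these data known. Values per array were given for tested collagens with an absolute log2 fold change of 0.5 or more or an unadjusted p under 0.05 and for the chains of types I, III, IV (alpha-1 and alpha-2), V, VI, XV and XVIII, and for others where the overlap of the groups is described; companion lists were described by their counts and their 4 largest absolute fold changes. All 36 symbols matched the RefSeq table of GRCm38.p6. Median scaling, no normalization, cyclic loess, other filters, a replicate block, an exact rank test and leaving out each tumor were tried as alternatives. Python 3.11.15, pandas 2.3.3 and matplotlib 3.10.9 were used for sequences and figures.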

Additional observations from a re-analysis of the deposited data

How the results depend on the processing

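The number of collagens higher in sEphB4-Alb tumors at an unadjusted p under 0.05, 2 as reported, was 4 with median scaling, 8 with no normalization, 4 with cyclic loess and 0 by an exact Mann-Whitney-Wilcoxon test, whose smallest p here is 0.333. It was 1 to 7 when 1 tumor was left out (1 without either sEphB4-Alb tumor, 7 without PBS tumor 2). With the replicate number as a block it was 4. The numbers come from the titles and did not pair the tumors (correlation of the replicate differences 0.04). No collagen was lower at that threshold under any of these settings. The median over the tested collagens was 0.41 with median scaling, 0.74 with no normalization and 0.02 to 0.35 with 1 tumor left out. The fibrillar median was 0.66 with no normalization and -0.022 to 0.39 with 1 tumor left out. The basement membrane median was 0.94 with median scaling, 1.27 with no normalization, 0.087 with no filter on dim genes, which adds 4 chains above background on no array, and 0.31 to 0.64 with 1 tumor left out. The median of the other collagens was 0.50 with median scaling, 0.83 with no normalization, -0.0017 with no filter and 0.010 to 0.22 with 1 tumor left out. Col3a1 turned to -0.070 without PBS tumor 2. Over the settings for the 9 collagens fixed for full description (Col1a1, Col3a1, Col4a1, Col4a2, Col5a1, Col6a1, Col6a2, Col15a1 and Col18a1), 122 values kept direction and side of the unadjusted threshold, 17 newly passed it, 4 (Col1a1 and Col4a1) no longer did and 1 turned. The exact Mann-Whitney-Wilcoxon test is part of this tally although its outcome was fixed, since its p cannot go below 0.333. It was the only setting in which Col1a1 no longer passed. Of the 10 other tested collagens, 8 changed sign with at least 1 tumor left out, such as Col27a1 (-0.38 without PBS tumor 1) and Col24a1 (0.23 without PBS tumor 2). A stricter background level, chosen after seeing the data, called 2. The non-normalized table and detection p-values were not run, because their columns could not be mapped to samples. With 2 tumors in each group, no collagen passed adjustment over all genes under any setting run here.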
